A study of Sus scrofa with 2 samples.

Results

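The 49 genes described here encode the machinery that licenses replication origins, unwinds and copies DNA at the fork, and supplies its nucleotides. They were chosen by symbol, and 41 of the 49 had an entry under that symbol among the 34570 entries of the deposited tables. Of the 41 listed, 36 had values above 0 and a mean of at least 1 over both libraries, and MCM10, ORC6, POLE, RRM2 and TYMS were listed at 0 in both libraries. No entry carried the symbols ORC1, ORC2, MCM5, MCM6, MCM7, GINS1, CDC7 or TK1. A listed 0 can be a failed estimate and is not read as absence of the transcript.

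RNA came from follicular granulosa cells, which nurse the oocyte and make steroid hormones, of female Chinese Erhualian pigs (Sus scrofa). One library was from cells given an siRNA against SMAD4 (SMAD4-siRNA), the shared partner of the receptor-activated SMADs, and the other from cells given a control siRNA (labelled NC-siRNA). Each library pooled the RNA of 3 individuals, with 1 library per group, and the labels do not say whether the same animals served both groups, nor give the siRNA sequences or the time of harvest. There is therefore no test between the conditions, and every difference below is one between 2 libraries.

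Origins are licensed when the origin recognition complex, CDC6 and CDT1 load the MCM helicase onto DNA, and geminin, the product of GMNN, blocks CDT1 once S phase has begun. The kinase CDC7-DBF4 then helps CDC45 and the GINS complex join MCM to form the active CMG helicase. Polymerase alpha and primase start each strand, the clamp loader RFC places the sliding clamp PCNA, and polymerases delta and epsilon extend the strands. Many of these genes are E2F targets that are transcribed as cells enter S phase, and dividing granulosa cells of growing follicles use them. In bulk RNA, a larger share of cells in S phase and more transcript per cell cannot be told apart.

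Values are reads per kilobase divided by an upper quartile of each library. At divisors inferred from the values, 100 stands for 98 reads per kilobase in the SMAD4-siRNA library and 89 in the NC-siRNA library. Ratios are the SMAD4-siRNA value over the NC-siRNA value, and the range in parentheses after a ratio is its 95% counting interval (exact Clopper-Pearson, on the share of a gene's reads that fell in either library). It leaves out the spread between animals and between transfections. The targeted gene had a value of 47.9 in the SMAD4-siRNA library and 85.0 in the NC-siRNA library, a ratio of 0.563 (0.497 to 0.639). Read numbers are the smallest whole ones that the values allow, and so lower bounds. The libraries held at least 17394712 reads on genes (SMAD4-siRNA) and 17680953 (NC-siRNA). The measured replication genes took 0.0894% of these smallest reads in the SMAD4-siRNA library and 0.0613% in the NC-siRNA library. Each gene's reads are a lower bound, so these shares are neither true shares nor bounds. The members' values summed to 8236 in the SMAD4-siRNA library and 6574 in the NC-siRNA library. Of 7 granulosa markers, 5 were measured: INHBA had a ratio of 1.31 (1.22 to 1.41), and the intervals of FOXL2 (ratio 1.11), FST (0.920), INHA (0.848) and FSHR (0.706, on 7 reads in SMAD4-siRNA and 9 in NC-siRNA) held 1. CYP19A1 and AMH were listed at 0. The 5 measured granulosa markers summed to 1724 in the SMAD4-siRNA library and 1581 in the NC-siRNA library. Measured theca and stroma markers summed to 30595 (SMAD4-siRNA) and 39847 (NC-siRNA), of which COL3A1 alone gave 28474 and 37062.

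The replication genes were mostly higher in the SMAD4-siRNA library, by amounts that were usually under 2-fold. On the scale of log2(value + 1), 31 of 36 (86.1%) lay above 0, where 45.5% of all 16609 measured genes did. The median log2 ratio was 0.53, against -0.05 over all measured genes. At 1.5-fold, 16 of 36 (44.4%) were higher, against 13.5% of all measured genes, and 1 was lower, against 13.7%. At 2-fold, 4 of 36 (11.1%) were higher, against 7.17% of all measured genes, a share near that background, and 1 was lower, against 6.68%. Of all genes past 2-fold, most had under 100 reads over both libraries. As plain ratios, without the pseudocount, ORC3, POLE2, CDT1, CDC6 and POLD1 were at least 2. The share of all genes at a plain ratio of 2 was not counted. With both libraries rescaled to the same sum, the same 5 of 36 members had a plain ratio of at least 2, and RPA3 was still lower, at 0.345. When the values were also brought down to the size of TPM, where the pseudocount weighs more and fewer genes pass the minimum, 3 of 35 members were higher and 0 lower at 2-fold, and 208 of 11771 genes were higher and 112 lower, in place of 1191 and 1110 of 16609.

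A counting interval lay wholly above 1 for 24 of the 36 (66.7%), against 12.7% of all measured genes, and wholly below 1 for 2, against 21.5%. With the libraries rescaled to the same sum, 25 of 36 (69.4%) were above 1, against 21.3% of all measured genes, and RPA3 alone was below 1, against 13.4%. Since intervals narrow with depth, the same count was made over genes with at least 100 reads in both libraries together. There 23 of 30 members (76.7%) had an interval above 1, against 17.6% of 9664 genes, and 1 had one below 1, against 32.4%. Of these 30 members, 26 lay above a log2 ratio of 0, against 42.1% of genes of that depth, 14 were higher by 1.5-fold, against 4.39%, and 0 were lower by as much, against 5.69%. ORC3, CDT1 and POLD1 were higher by 2-fold, 3 of 30 against 1.32%, and 0 were lower by 2-fold, against 1.12%. This filter adds the reads of both libraries, so a gene can pass it through the library where it is higher. ORC3 (81 reads in SMAD4-siRNA, 25 in NC-siRNA), CDC6 (72 and 32) and DBF4 (66 and 34) reached 100 in this way. The counts at this depth are thus not free of the difference itself. Ranked among all measured genes by log2 ratio, 24 of the 36 stood in the top 20% and 9 in the top 10%, and RPA3 alone stood in the bottom 20%. The members below 0 were GMNN, RFC1, RPA2, RPA3 and RRM1. Of these, GMNN, RFC1 and RPA2 turned above 0 when the ratios were centred on the median of all genes or the libraries were rescaled to the same sum, which multiplies every ratio by 1.034 and 1.085.

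**Figure D1:**
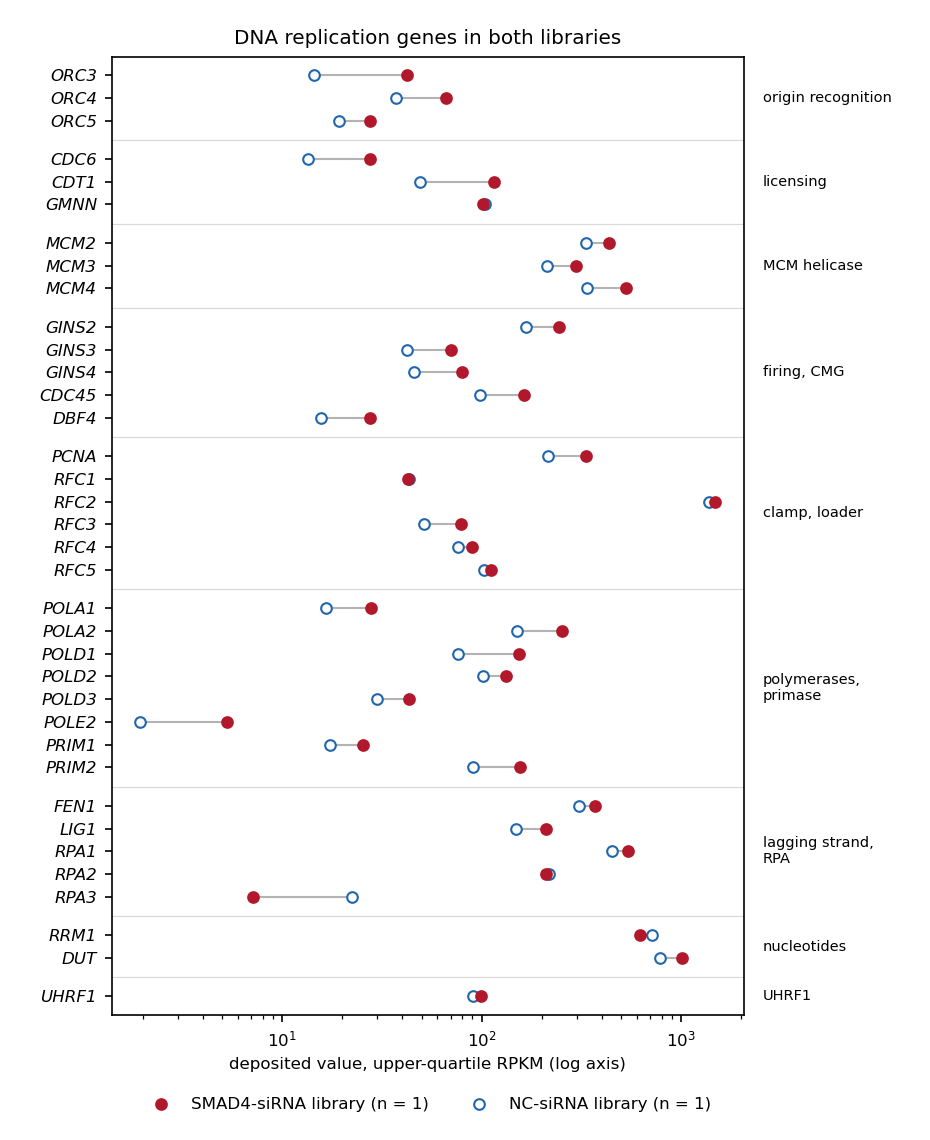
Deposited value (upper-quartile RPKM, log axis) of the 36 measured replication genes in the SMAD4-siRNA library (filled points) and the NC-siRNA library (open points), 1 library each, with no error bars since there are no replicates. Filled points lie to the right for 31 genes; RPA3 lies furthest to the left of its open point, at 7.14 (SMAD4-siRNA) against 22.4 (NC-siRNA).

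Origin recognition held the highest single ratio among the members. ORC3, a subunit of the complex that marks origins, had a value of 42.3 in the SMAD4-siRNA library and 14.4 in the NC-siRNA library, on at least 81 reads (SMAD4-siRNA) and 25 (NC-siRNA), a ratio of 2.94 (1.86 to 4.81). ORC4, an ATP-binding subunit of the same complex, had 66.3 in the SMAD4-siRNA library and 37.3 in the NC-siRNA library, a ratio of 1.78 (1.33 to 2.40). ORC5 had 27.5 in the SMAD4-siRNA library and 19.2 in the NC-siRNA library, and its interval held 1 (0.855 to 2.44). All 3 subunits were thus higher, where 45.5% of all measured genes lay above a log2 ratio of 0. ORC3 was higher by the most and ORC5 within counting error. Entries without a symbol that a reference table of assembly Sscrofa11.1 names add values for this complex. One named ORC1, the large ATPase subunit, had 60.9 in the SMAD4-siRNA library and 32.9 in the NC-siRNA library, a ratio of 1.85 (1.17 to 2.99). A second ORC3 entry, a transcript of miscellaneous type, had 30.8 in the SMAD4-siRNA library and 8.04 in the NC-siRNA library, a ratio of 3.83 (1.82 to 9.02), so reads of ORC3 may be split over both entries, each of which was higher.

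Among the licensing genes, both loading factors were higher, while the interval of the inhibitor GMNN held 1. CDT1, which brings MCM to the origin, had 115 in the SMAD4-siRNA library and 49.3 in the NC-siRNA library, on at least 257 reads (SMAD4-siRNA) and 100 (NC-siRNA), a ratio of 2.33 (1.85 to 2.97). CDC6, the ATPase that works with it, had 27.5 in the SMAD4-siRNA library and 13.5 in the NC-siRNA library, a ratio of 2.04 (1.33 to 3.20), with a log2 ratio of 0.98 on the scale of value + 1, just inside 2-fold. GMNN, the inhibitor of CDT1, had 102 in the SMAD4-siRNA library and 104 in the NC-siRNA library, a ratio of 0.982 (0.763 to 1.27). CDT1 transcript, per length, thus stood at 1.13 times that of GMNN in the SMAD4-siRNA library and at 0.475 times in the NC-siRNA library. The quotient of these was 2.38 (1.67 to 3.38, exact conditional interval for counting error). It does not depend on how the libraries are scaled.

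The MCM helicase subunits that could be measured were all higher, with ratios from 1.31 to 1.58. Over all measured genes, 45.5% lay above a log2 ratio of 0 and 12.7% had an interval above 1. MCM2 had 435 in the SMAD4-siRNA library and 332 in the NC-siRNA library, a ratio of 1.31 (1.21 to 1.42). MCM3 had 299 in the SMAD4-siRNA library and 212 in the NC-siRNA library, a ratio of 1.41 (1.28 to 1.55). MCM4 had 532 in the SMAD4-siRNA library and 337 in the NC-siRNA library, a ratio of 1.58 (1.44 to 1.74). These subunits form a single ring, and their levels per length lay within 1.78-fold of each other in the SMAD4-siRNA library and 1.59-fold in the NC-siRNA library. With at least 676 reads in each library, the 3 subunits had narrow intervals, all clear of 1. The interval of MCM4 did not meet that of MCM2, while that of MCM3 met both. MCM5 is named by the reference table for an entry listed at 0 in both libraries.

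The firing factors measured under their symbols were higher in 5 of 5 cases, with every interval above 1 and ratios from 1.46 to 1.76. An entry that the reference table names CDC7, given below, was lower. Of all measured genes, 45.5% lay above a log2 ratio of 0 and 12.7% had an interval above 1. CDC45, the helicase cofactor, had 163 in the SMAD4-siRNA library and 97.9 in the NC-siRNA library, a ratio of 1.66 (1.38 to 2.01). GINS2 had 243 in the SMAD4-siRNA library and 166 in the NC-siRNA library, a ratio of 1.46 (1.20 to 1.78). GINS3 and GINS4, its partners in the 4-subunit GINS complex, had ratios of 1.66 (1.26 to 2.18) and 1.74 (1.33 to 2.29). GINS2 stood at 3.47 times the level of GINS3 in the SMAD4-siRNA library and at 3.93 times in the NC-siRNA library. The difference between GINS2 and GINS3 within each library was thus larger than that of any measured GINS subunit between libraries. GINS3 and GINS4 lay closer to each other within each library than either did to itself between libraries. DBF4, the activating subunit of the CDC7 kinase, had 27.5 in the SMAD4-siRNA library and 15.6 in the NC-siRNA library, a ratio of 1.76 (1.15 to 2.75). An entry that the reference table names CDC7 went the other way, with 18.7 in the SMAD4-siRNA library and 31.1 in the NC-siRNA library, a ratio of 0.601 (0.410 to 0.874) on at least 49 reads (SMAD4-siRNA) and 74 (NC-siRNA). The kinase and its activator thus lay on opposite sides of 1, both on modest read numbers.

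**Figure D2:**
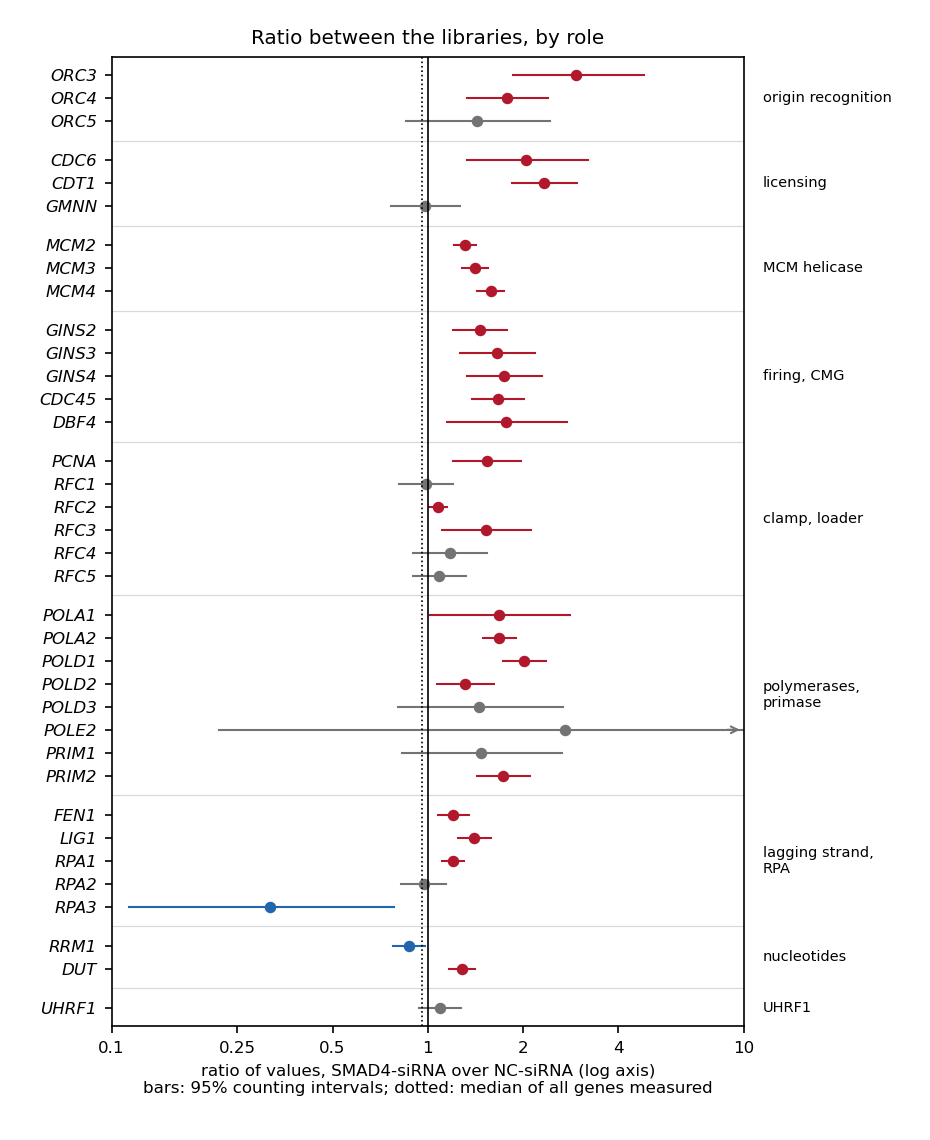
Ratio of the SMAD4-siRNA value over the NC-siRNA value (log axis) for each measured replication gene, by role, with 95% counting intervals; red intervals lie above 1, blue below 1 and grey ones hold 1, the arrow marks an interval that runs past the axis, and the dotted line is the median ratio of all measured genes (0.959). All 5 firing factors and all 3 MCM subunits are red, whereas 3 of the 5 RFC subunits, GMNN and UHRF1 are grey.

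Clamp and clamp loader differed less as a group, with a median log2 ratio of 0.17. PCNA, the sliding clamp, had 332 in the SMAD4-siRNA library and 216 in the NC-siRNA library, a ratio of 1.54 (1.20 to 1.98). RFC3, a small loader subunit, had 78.5 in the SMAD4-siRNA library and 51.4 in the NC-siRNA library, a ratio of 1.53 (1.11 to 2.12). RFC1, the large subunit, had 42.7 in the SMAD4-siRNA library and 43.3 in the NC-siRNA library, a ratio of 0.986 (0.809 to 1.20). Between these, RFC4 was at 1.17 and RFC5 at 1.09, both with intervals that held 1. RFC2 had by far the highest level of the loader, 1483 in the SMAD4-siRNA library and 1376 in the NC-siRNA library, and a ratio of 1.08 (1.01 to 1.15). It made up 69.4% of the summed values of PCNA and the 5 loader subunits in the SMAD4-siRNA library and 73.8% in the NC-siRNA library. Per length it stood at 13.3 times RFC5, the next loader subunit, in the SMAD4-siRNA library and at 13.4 times in the NC-siRNA library, although the subunits work as one complex. The rule by which reads were given to entries was not stated in the labels.

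Polymerase and primase genes were higher in 8 of 8 measured cases, against 45.5% of all measured genes above a log2 ratio of 0. Their median log2 ratio was 0.73, and 5 intervals lay above 1, against 12.7% of all measured genes. The 8 include POLE2, on 3 reads (SMAD4-siRNA) and 1 (NC-siRNA), and POLE was listed at 0 in both libraries. POLD1, the catalytic subunit of polymerase delta, had 154 in the SMAD4-siRNA library and 76.4 in the NC-siRNA library, on at least 523 reads (SMAD4-siRNA) and 235 (NC-siRNA), a ratio of 2.02 (1.73 to 2.37). POLD2, an accessory subunit of the same enzyme, had 133 in the SMAD4-siRNA library and 101 in the NC-siRNA library, a ratio of 1.31 (1.07 to 1.62). POLD1 was thus at 1.16 times the level of POLD2 in the SMAD4-siRNA library and at 0.755 times in the NC-siRNA library, a quotient of 1.54 (1.18 to 1.99). The third delta subunit measured, POLD3, had a ratio of 1.45 (0.806 to 2.68).

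Both polymerase alpha subunits had nearly the same ratio although POLA2 stood at 9.03 times the level of POLA1 in the SMAD4-siRNA library and at 8.99 times in the NC-siRNA library. POLA2, the regulatory subunit, had 253 in the SMAD4-siRNA library and 150 in the NC-siRNA library, a ratio of 1.68 (1.499 to 1.90). POLA1, the catalytic subunit, had 28.0 in the SMAD4-siRNA library and 16.7 in the NC-siRNA library, a ratio of 1.68 (1.02 to 2.82). A second entry that the reference table names POLA1 was listed at 0 in both libraries, so the level of POLA1 may be incomplete. PRIM2, the large primase subunit, had 156 in the SMAD4-siRNA library and 90.3 in the NC-siRNA library, a ratio of 1.73 (1.43 to 2.11), and PRIM1, the catalytic one, had 25.5 in the SMAD4-siRNA library and 17.3 in the NC-siRNA library, with an interval that held 1 (0.829 to 2.67). The quotient of POLA2 over POLA1 between the libraries was 1.005 (0.590 to 1.68). In each pair the regulatory or large subunit was the more abundant, in both libraries. POLE2, a subunit of polymerase epsilon, was past 2-fold on 3 reads in the SMAD4-siRNA library and 1 in the NC-siRNA library, with a ratio of 2.72 (0.219 to 143).

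Genes of lagging-strand processing and single-strand binding were higher by less or not at all. LIG1, which seals Okazaki fragments, had 209 in the SMAD4-siRNA library and 149 in the NC-siRNA library, a ratio of 1.40 (1.25 to 1.58). FEN1, the flap nuclease that trims them, had 369 in the SMAD4-siRNA library and 306 in the NC-siRNA library, a ratio of 1.20 (1.08 to 1.35). RPA1, the large subunit of the single-strand binding protein, had 544 in the SMAD4-siRNA library and 452 in the NC-siRNA library, a ratio of 1.20 (1.11 to 1.30). The other RPA subunits did not follow it. RPA2 had 211 in the SMAD4-siRNA library and 218 in the NC-siRNA library, a ratio of 0.970 (0.825 to 1.14). RPA3, the smallest subunit, had 7.14 in the SMAD4-siRNA library and 22.4 in the NC-siRNA library, on at least 7 reads (SMAD4-siRNA) and 20 (NC-siRNA), a ratio of 0.318 (0.114 to 0.783). It was the only member lower by 2-fold, and it had far fewer reads than RPA1 and RPA2. A second entry that the reference table names RPA3 was listed at 0 in both libraries. How reads were shared between these entries is not known.

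Nucleotide supply could be judged from few genes, since RRM2 and TYMS were listed at 0 and TK1 had no entry. RRM1, the large subunit of ribonucleotide reductase, had 625 in the SMAD4-siRNA library and 716 in the NC-siRNA library, a ratio of 0.873 (0.779 to 0.979). With the libraries rescaled to the same sum its ratio was 0.948 (0.845 to 1.06), still below 1 but with an interval that held 1. DUT, which clears dUTP, had 1008 in the SMAD4-siRNA library and 785 in the NC-siRNA library, a ratio of 1.28 (1.17 to 1.41). These 2 abundant genes thus lay on opposite sides of 1. The quotient of RRM1 over DUT between the libraries was 0.680 (0.585 to 0.791). UHRF1, which guides DNA methylation to newly copied DNA, had 99.4 in the SMAD4-siRNA library and 90.8 in the NC-siRNA library, a ratio of 1.09 (0.941 to 1.27).

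Across the members, those with lower levels tended to have higher ratios. The 12 genes with the lowest mean values (3.63 to 56.3) had a median log2 ratio of 0.71, the middle 12 had 0.54, and the 12 with the highest (201 to 1429) had 0.37. Spearman's rho between mean value and log2 ratio was -0.38 over these 36 genes and -0.06 over all measured genes; genes of one pair of libraries are not independent replicates, and the values enter both measures. Members of low level rest on fewer reads, and 6 of the lowest 12 had an interval above 1, against 8 of the middle 12 and 10 of the highest 12.

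**Figure D3:**
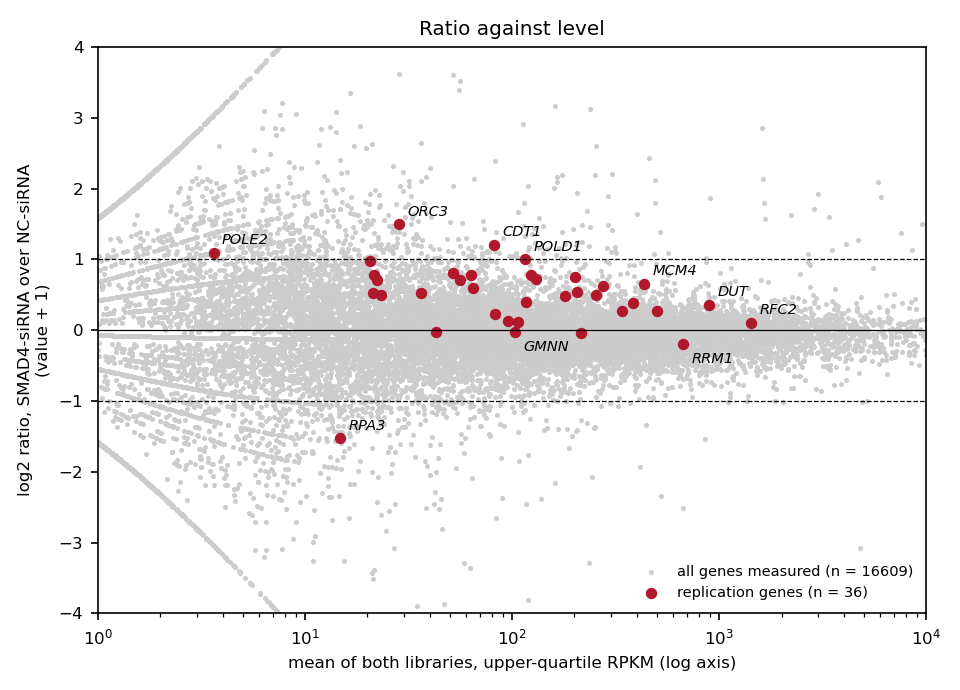
Log2 ratio of SMAD4-siRNA over NC-siRNA (value + 1) against the mean of both libraries (upper-quartile RPKM, log axis) for all 16609 measured genes (grey) and the 36 replication genes (red); dashed lines mark 2-fold, and 264 genes lie outside the axes. Most red points form a band between 0 and 1 that narrows to the right, with RPA3 at -1.53 and ORC3 at 1.49 as its ends.

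Other factors of DNA replication, on a list of 49, differed less between the libraries. Of 38 measured, 24 (63.2%) had a log2 ratio above 0, against 45.5% of all measured genes. A counting interval lay above 1 for 8, against 12.7% of all measured genes, and below 1 for 5, against 21.5%. Past 2-fold were 0 in either direction, against 7.17% of all measured genes higher and 6.68% lower. The median log2 ratio of these 38 was 0.18, between that of the members (0.53) and that of all measured genes (-0.05). At the high end among those with at least 20 reads stood TOPBP1, a scaffold of origin firing, with 52.0 in the SMAD4-siRNA library and 26.6 in the NC-siRNA library, a ratio of 1.96 (1.45 to 2.68). ASF1B, a histone chaperone behind the fork, followed with a ratio of 1.65 (1.35 to 2.03), and TIPIN, a fork protection factor, with 1.56 (0.773 to 3.26). At the low end stood ASF1A, the paralog of ASF1B, with 0.711 (0.475 to 1.06), MCMBP, an MCM-binding protein, with 0.831 (0.743 to 0.928), and RNASEH2C, a subunit of the ribonuclease that removes ribonucleotides from DNA, with 0.857 (0.805 to 0.912). Chromatin factors behind the fork were above 0 in 6 of 7 cases, whereas accessory polymerase subunits and primer removal factors were above 0 in 1 of 7. Of all measured genes, 45.5% were above 0.

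**Figure D4:**
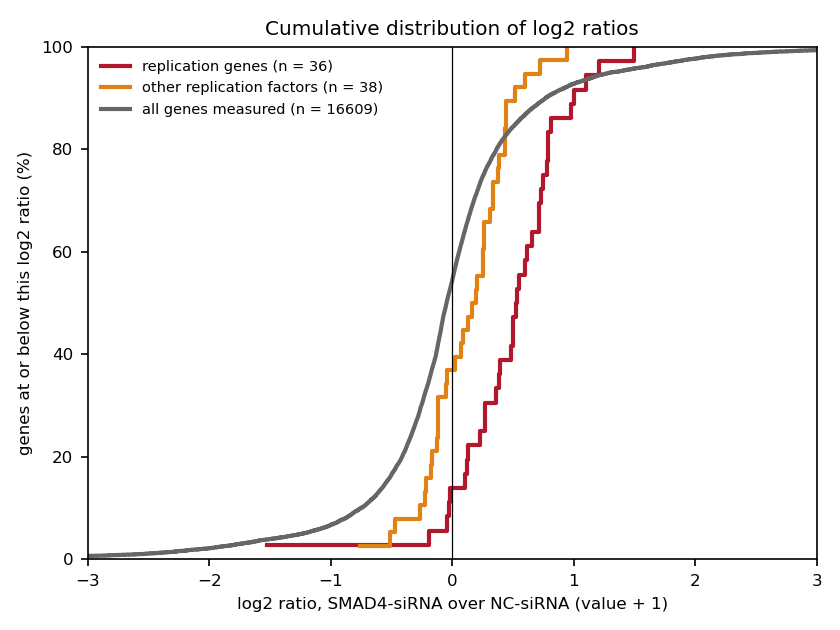
Cumulative share of genes (%) by log2 ratio of SMAD4-siRNA over NC-siRNA (value + 1) for the 36 replication genes (red), 38 other replication factors (orange) and all 16609 measured genes (grey); 204 genes lie outside the horizontal axis. The red curve runs to the right of the grey one through most of its range (medians 0.53 and -0.05), the orange one lies between (0.18), and red and grey meet again near a log2 ratio of 1.

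Mitosis genes, which mark dividing cells, stood higher in the same library. Of 24 on the list, 19 were measured, and 19 of 19 had a log2 ratio above 0, against 45.5% of all measured genes. An interval lay above 1 for 17, against 12.7% of all measured genes, and the median log2 ratio was 1.04. The summed value of the mitosis genes was 2760 in the SMAD4-siRNA library and 1587 in the NC-siRNA library. The replication members summed to 8236 in the SMAD4-siRNA library and 6574 in the NC-siRNA library. RFC2, DUT and RRM1 gave 1483, 1008 and 625 of the members' sum in the SMAD4-siRNA library and 1376, 785 and 716 in the NC-siRNA library. Markers of other cells were mostly on the lower side, where 9056 of all 16609 measured genes also lay. Of the theca and stroma markers, 5 of 6 were measured, with a summed value of 30595 in the SMAD4-siRNA library and 39847 in the NC-siRNA library, and CYP17A1 was listed at 0. COL3A1 alone gave 28474 of that sum in the SMAD4-siRNA library and 37062 in the NC-siRNA library. STAR went the other way, with a ratio of 2.27 (0.832 to 7.14), while the remaining 4 were below 1 with intervals below 1. Of the endothelial markers, 4 of 6 were measured (sums 341 in SMAD4-siRNA and 445 in NC-siRNA), with TEK listed at 0, and of the leukocyte markers 4 of 7 (sums 602 in SMAD4-siRNA and 628 in NC-siRNA), with CD3E listed at 0. KDR, at 2.36 (0.790 to 8.46), and ITGAM, at 2.04 (0.570 to 9.08), went the other way on few reads. The other 3 measured of each list were below 1. CD14 alone gave 566 (SMAD4-siRNA) and 579 (NC-siRNA) of the leukocyte sums, a ratio of 0.978 (0.888 to 1.08). Oocyte markers had 2 of 5 measured (sums 61.7 in SMAD4-siRNA and 76.1 in NC-siRNA), with ZP2 and ZP3 listed at 0, and erythroid markers 1 of 3, on 1 read in each library. Of the 2 oocyte markers, GDF9 was at 0.772 and BMP15 at 1.82, the latter on 2 reads (SMAD4-siRNA) and 1 (NC-siRNA), and both intervals held 1. The part of cell composition in the differences was not tested.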

How the data were processed

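The authors deposited 1 table per library with a value per gene. From the tables' names, the deposited values are upper-quartile RPKM. Aligner, counter, genome build and annotation: not given in the sources used here. Per the labels' protocols, RNA extracted with TRIzol was pooled from 3 individuals per group and made into libraries with the Ion Total RNA-Seq Kit.

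Whole reads were recovered from the values. The commonest ratio between the libraries fixed the ratio of their divisors, and the multiple (980 for SMAD4-siRNA, 890 for NC-siRNA) was the one at which 14 of 19 microRNA entries had their RefSeq gene length. The margin was narrow, since divisors of 2940 and 2670 matched 13 of 19 and would mean more reads at a given length. At divisors of 980 and 890 all 18428 genes above 0 gave whole reads at a length of up to 40000 bases (relative tolerance 2e-09, absolute tolerance 1e-06). The smallest such reads were used, so they are lower bounds. Intervals cover counting error only; with no molecular identifiers, several reads can stem from 1 molecule.

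After adding a pseudocount of 1, SMAD4-siRNA values were divided by NC-siRNA values and taken to log2, for genes whose mean over both libraries reached 1; this scale understates changes of low genes. Calls were made at 2-fold. Single genes are given as plain ratios. Recovery of reads at known divisors, intervals on true reads and 2-fold calls were tested on simulated data. The choice of divisors and intervals from the smallest reads were not. The members, lists, thresholds and alternatives were chosen with earlier results of these data known. Any member could be named; of the other replication factors, the 3 highest and 3 lowest with at least 20 reads were. Reference names came from assembly Sscrofa11.1, by gene ID. Sequences and promoter motifs were not analysed here. Software was Python 3.11.15, numpy 2.4.6, pandas 2.3.3, scipy 1.17.1 and matplotlib 3.10.9.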

Additional observations from a re-analysis of the deposited data

How the results depend on the processing

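No paired analysis was possible because each group has 1 library and the labels number no replicates. The median log2 ratio of the replication members lay between 0.48 and 0.58 under all 8 alternatives that gave one, and that of the other replication factors between 0.15 and 0.24 under 6. With a pseudocount of 5, 2 members were higher by 2-fold; at a threshold of 1.5-fold, 16 were. Lower by 2-fold were 0 members with the libraries rescaled to equal sums, as TPM values have, where RPA3 was at -0.74 and POLE2 fell under the minimum, and 0 with at least 100 reads, which RPA3 lacks. The log2 ratio of SMAD4 was -0.58 after that rescaling, which lowers all values and makes the pseudocount weigh more. Over all genes, 466 were higher and 437 lower with a pseudocount of 5, 208 and 112 after rescaling, 572 and 546 with a mean value of at least 5, 2245 and 2277 at 1.5-fold, and 128 and 108 with at least 100 reads. Of the single members' 214 values under 6 alternatives, 213 stayed within their counting interval. The exception was RFC2, at 0.22 after rescaling. For 36 values with no minimum on the mean and 35 with a minimum of 5, this was fixed in advance. Those settings only select genes and leave each ratio as it was. A pseudocount of 0.1 moves each of 36 values toward the plain ratio, which lies inside its own interval, so these could hardly leave it. Centring adds the same 0.048 to every log2 ratio. Wide intervals, such as that of POLE2, could also hardly be left. Depth limits POLE2, RPA3, POLD3, PRIM1 and ORC5 most, each with at most 41 smallest reads per library.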
